A study of Danio rerio with 8 samples.

Results

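The BCL2 family genes mcl1a, mcl1b, bcl2l1, baxa, baxb and bbc3 were followed across sorted islet cells of the zebrafish pancreas. They were taken by gene name, and mcl1a had been picked because it was already known from these libraries to be far lower in ins+ cells. The 6 genes stood on 7 of the 31953 gene rows of the count table. A row for each gene, 6 in all, passed the filter on low counts, among 16418 tested rows. The remaining row was a second baxa entry (ENSDARG00000089129) with 58 counts in 1 ins+ library and 0 in the other 7, and it was not tested.

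RNA-seq libraries numbered 3 for sst1.1+ins+ cells, in which both reporters were on, 2 for ins+ cells, with only the insulin reporter on, and 3 for sst1.1+ cells, with only the somatostatin reporter on. All 3 groups came from untreated fish (growth given as Normal) at 30 days post fertilization and carried the same transgenes, Tg(ins:BB1.0L) and TgBAC(sst1.1:memEGFP), so no group was free of them. A cell's group rests on 2 reporters driven by the ins and sst1.1 regulatory sequences, not on the hormones themselves. Cells of enzyme-treated pancreas were caught in lysis buffer at the sorter, and Smart-Seq2, which copies whole transcripts and adds no molecular identifiers, gave the cDNA. Nothing in the labels tells whether replicates were separate fish, pools or sorts. The p-values therefore measure the spread between libraries, which may be technical.

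Proteins of the BCL2 family set the threshold for the mitochondrial route of programmed cell death. Pro-survival members such as MCL1 and BCL-XL hold back BAX and its relatives, which otherwise open pores in the outer mitochondrial membrane and release cytochrome c to the caspases. BH3-only proteins, PUMA among them, bind the pro-survival members and free the pore formers. Zebrafish carry paired copies of the genes for MCL1 (mcl1a and mcl1b) and BAX (baxa and baxb), while bcl2l1 encodes the BCL-XL counterpart and bbc3 encodes PUMA. In mammals MCL1 protein is made and destroyed quickly, so its level leans on the supply of transcript, and both MCL1 and BCL-XL help beta cells to survive stress.

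Library totals ran from 24234927 to 24504469 gene counts in sst1.1+ins+, were 19861081 and 16948429 in ins+, and ran from 23425079 to 30374029 in sst1.1+. A floor of 3 counts corresponded to 0.101 to 0.176 CPM (counts scaled to TMM-adjusted library totals, the unit of all levels here), a limit that covers counting error only. Transcripts of ins and sst1.1 followed the sort. Insulin took 11.1 to 13.1% of gene counts in sst1.1+ins+, 23.8 to 25.8% in ins+ and 0.0642 to 0.125% in sst1.1+, while sst1.1 took 16.7 to 20.2%, 4.35 to 5.56% and 25.4 to 28.9% in the same order of groups. The ins+ libraries thus still held sst1.1 transcript, and both were shallower than any other library. Spike-in RNA took 0.0145 to 0.0236% of counts in sst1.1+ins+, 0.0416 to 0.0501% in ins+ and 0.0244 to 0.0348% in sst1.1+. One library, ins+ replicate 2, bears a track number in its description that does not continue the run seen in the other 7.

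Among the pro-survival genes, mcl1a (ENSDARG00000009779) held 1797, 1683 and 1922 CPM in the sst1.1+ins+ libraries, 274 and 333 CPM in the ins+ libraries, and 3145, 2776 and 2460.2 CPM in the sst1.1+ libraries. Both ins+ libraries lay far below all others, the sst1.1+ins+ libraries lay in between, and none of the groups overlapped. The gene took 0.162 to 0.192% of all gene counts in sst1.1+ins+, 0.0276 to 0.0335% in ins+ and 0.238 to 0.308% in sst1.1+. Even the lowest library held 5486 counts of it, so error in the counting of reads had little part in these values. Without molecular identifiers, such counts do not give the number of transcripts sampled. These levels chose the gene, so its differences from ins+ are given as a description, with no test. In bulk libraries, fewer cells expressing a gene and less RNA per cell cannot be told apart.

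**Figure D1:**
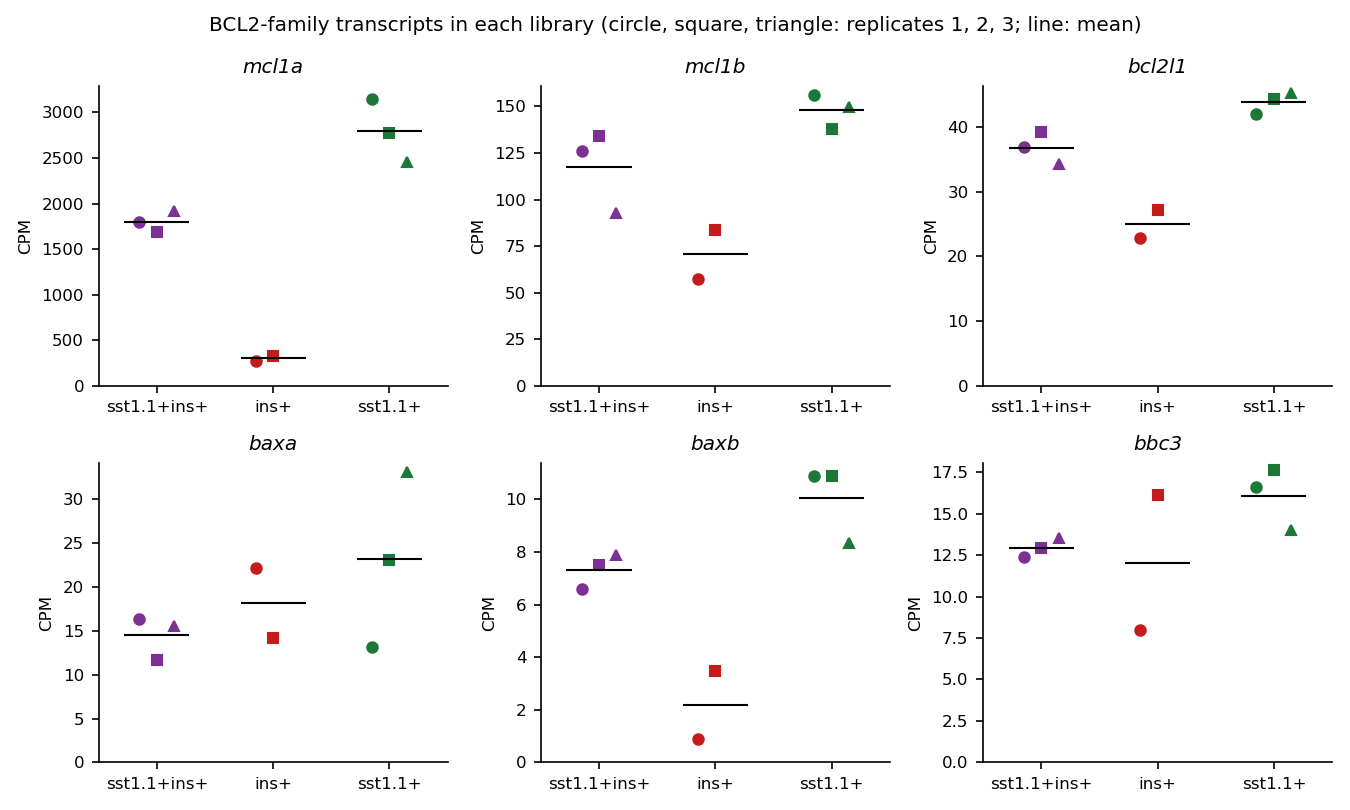
CPM of each of the 6 genes (vertical axes, each starting at 0) in sst1.1+ins+, ins+ and sst1.1+ libraries; circles, squares and triangles are replicates 1, 2 and 3 and lines are group means. The mcl1a points form 3 separate levels, near 1801, 303 and 2794 CPM. Both ins+ points of baxa fall among those of other groups. For bbc3, ins+ replicate 2 does so too, while ins+ replicate 1, at 7.98 CPM, is the lowest point of the panel.

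The second copy, mcl1b (ENSDARG00000008363), held 126, 134 and 92.7 CPM in sst1.1+ins+, 57.6 and 83.9 CPM in ins+, and 156, 138 and 149.6 CPM in sst1.1+. Its groups kept the order of mcl1a, again without overlap, but over a much narrower span. Its mean was 118 ± 21.9 CPM in sst1.1+ins+ (SD, n = 3), against 70.8 ± 18.6 in ins+ (n = 2) and 148 ± 9.18 CPM for sst1.1+ (n = 3).

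The BCL-XL gene bcl2l1 (ENSDARG00000008434) held 36.9, 39.2 and 34.2 CPM in sst1.1+ins+, 22.8 and 27.1 CPM in ins+, and 42.0, 44.3 and 45.2 CPM in sst1.1+. The 3 groups did not overlap, and of the 6 genes this one varied least between libraries of a group, with a pooled SD of 0.12 in log2 CPM against 0.16 for mcl1a and 0.28 for mcl1b.

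Of the BAX genes, baxa (ENSDARG00000020623) held 16.3, 11.7 and 15.5 CPM in sst1.1+ins+, 22.2 and 14.2 CPM in ins+, and 13.2, 23.1 and 33.1 CPM in sst1.1+. All 3 groups overlapped, and the spread within sst1.1+ alone covered every ins+ value. It was the only one of the 6 with its lowest mean in sst1.1+ins+ (14.5 ± 2.49 CPM, against 18.2 ± 5.64 in ins+ and 23.2 ± 9.97 in sst1.1+), an order that does not exceed the spread between libraries.

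Its paralogue baxb (ENSDARG00000030881) held 6.58, 7.52 and 7.88 CPM in sst1.1+ins+, 0.898 and 3.46 CPM in ins+, and 10.9, 10.9 and 8.35 CPM in sst1.1+. The groups did not overlap, yet the ins+ values rest on 18 and 59 counts and lie further apart in fold than those within either other group. Its pooled SD, 0.77 in log2 CPM, was the largest of the 6.

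The PUMA gene bbc3 (ENSDARG00000069282) held 12.4, 12.9 and 13.5 CPM in sst1.1+ins+, 7.98 and 16.1 CPM in ins+, and 16.6, 17.6 and 14.0 CPM in sst1.1+. The ins+ libraries fell on either side of the sst1.1+ins+ range, so ins+ could not be ordered against it. The sst1.1+ins+ libraries were all below the sst1.1+ libraries, but narrowly: the highest of them stood at 13.5 CPM and the lowest sst1.1+ library at 14.0 CPM.

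The first comparison set ins+ cells against sst1.1+ cells. The fall of mcl1b in ins+ passed the test: it was 2.09-fold lower, at 70.8 ± 18.6 CPM in ins+ libraries (n = 2) and 148 ± 9.18 CPM in sst1.1+ libraries (n = 3), with a log2 fold change of -1.06 ± 0.23 (SE) and an adjusted p of 0.0226 (edgeR quasi-likelihood test, Benjamini-Hochberg over all tested genes). The mcl1a level was 9.21-fold lower in ins+ (303 ± 42.3 against 2794 ± 343 CPM; log2 fold change -3.20, 95% interval -3.57 to -2.84), the difference for which it was picked. Apart from mcl1a, 1 of 5 genes passed, where 4.03% of all tested genes did and 2.42% did so downward. The call for mcl1b did not hold without ins+ replicate 1 (log2 fold change -0.81, adjusted p = 0.141) or without sst1.1+ replicate 1 (-1.02, adjusted p = 0.0681). Without ins+ replicate 2, the library with the odd track number, it held (-1.36, adjusted p = 0.0373), and mcl1a stood at -3.35.

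The other 4 did not pass. The bcl2l1 level was 25.0 ± 3.03 CPM in ins+ and 43.8 ± 1.69 in sst1.1+ (log2 fold change -0.81, 95% interval -1.33 to -0.29, adjusted p = 0.0887). For baxb the means were 2.18 ± 1.82 CPM in ins+ and 10.0 ± 1.46 in sst1.1+ (log2 fold change -2.20, interval -3.73 to -0.68, adjusted p = 0.113), and that fold change was -1.53 without ins+ replicate 1 and -3.48 without ins+ replicate 2. DESeq2, which called 10.2% of all tested genes, called both of them lower (adjusted p = 0.0240 for bcl2l1 and 0.0156 for baxb). The intervals of baxa (-1.28 to 0.59) and bbc3 (-1.33 to 0.49) reach more than 2-fold lower in ins+ and also take in no change, with adjusted p of 0.747 and 0.664. Leaving out mcl1a, all 5 fold changes were negative, with a median of -0.81, where the median over all tested genes was -0.07 and 52.6% of them were negative. The CPM ranges did not overlap for 3 of these 5, against 33.3% of all tested genes. These 5 genes too were chosen with earlier results of these data known. Their shares, here and below, are therefore a description and not independent of that choice.

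The second comparison, of sst1.1+ins+ with sst1.1+ cells, shares its sst1.1+ libraries with the first. None of the 6 genes passed (0 of 6, where 0.207% of all tested genes did). By edgeR 7.90% of all tested genes had an unadjusted p under 0.05, and of the 6 only mcl1a did. Its level was 1.55-fold lower, at 1801 ± 119.6 CPM in sst1.1+ins+ and 2794 ± 343 CPM in sst1.1+ (n = 3 each; log2 fold change -0.63 ± 0.13 SE, 95% interval -0.92 to -0.35, adjusted p = 0.102 by edgeR). The sst1.1+ libraries also helped to choose this gene, and those of sst1.1+ins+ may have done so. That p is therefore not free of the choice. DESeq2 and limma-voom, which called 1.64% and 0.603% of all tested genes, both called mcl1a (adjusted p = 0.000223 and 0.00131). So did edgeR with no filter on low counts (adjusted p = 0.00315), which called 1.01% of all tested genes. These calls rest on the same libraries, so they are not free of the choice either and add no separate support.

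The other 5 log2 fold changes in that comparison ran from -0.67 for baxa to -0.25 for bcl2l1, with adjusted p of 0.761 or more. Their intervals still allow differences of some size. That of mcl1b ran from -0.76 to 0.10, that of bcl2l1 from -0.71 to 0.20 and that of bbc3 from -1.12 to 0.49. Their median was -0.33, against 0.00 over all tested genes. The CPM ranges of 4 of the 5 did not overlap, against 14.7% of all tested genes, with baxa the exception.

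The third comparison set sst1.1+ins+ against ins+ and shares libraries with both of the others. Apart from mcl1a, 0 of 5 genes passed, where 0.920% of all tested genes did. By edgeR, 3 of the 5 had an unadjusted p under 0.05, against 12.1% of all tested genes. The mcl1a level was 5.93-fold higher (1801 ± 119.6 CPM in sst1.1+ins+ and 303 ± 42.3 in ins+; log2 fold change 2.57, interval 2.22 to 2.92, a description). The 3 were mcl1b (log2 fold change 0.73, interval 0.24 to 1.22, adjusted p = 0.194), bcl2l1 (0.56, 0.04 to 1.07, adjusted p = 0.371) and baxb (1.75, 0.26 to 3.24, adjusted p = 0.326), and DESeq2, which called 4.71% of all tested genes, called mcl1b (adjusted p = 0.0410) while limma-voom called 0 of the 5, against 1.08% of all tested genes. The log2 fold change of baxa was -0.33 and that of bbc3 0.11, with intervals from -1.25 to 0.60 and from -0.80 to 1.01. The median of the 5 was 0.56, against 0.08 over all tested genes, and 3 of the 5 did not overlap, against 30.3% of all tested genes.

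**Figure D2:**
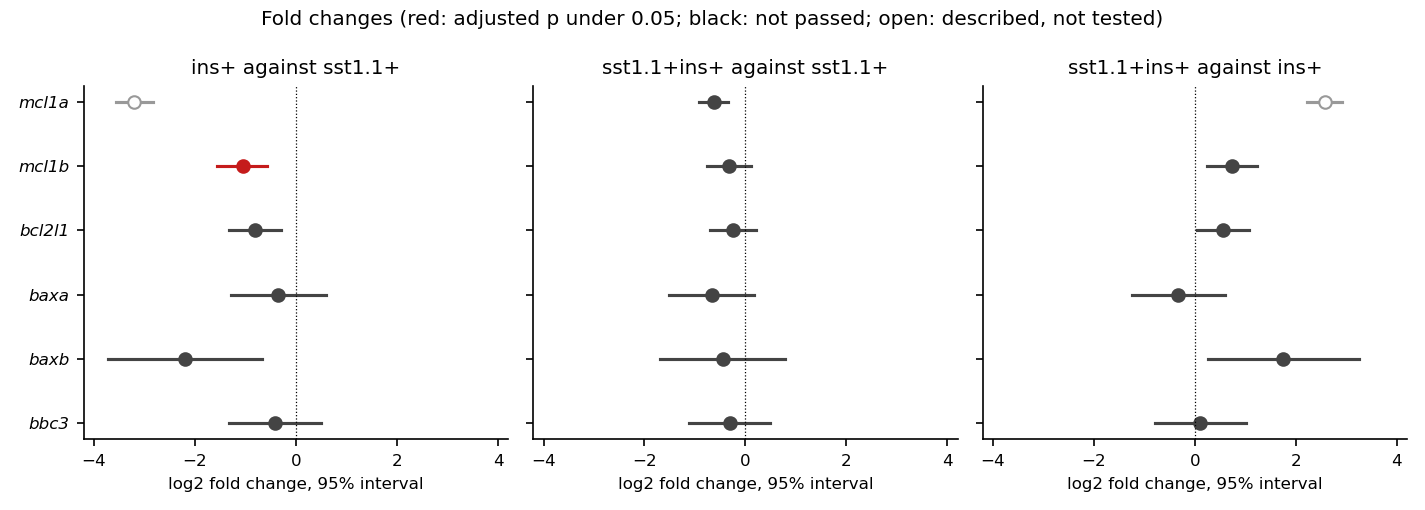
Log2 fold changes (points) with 95% intervals (bars) of the 6 genes, in 1 panel per comparison; red marks an adjusted p under 0.05, black a gene that did not pass, and open points mcl1a where it was described and not tested. In ins+ against sst1.1+, mcl1b is red at -1.06 and the open mcl1a point lies at -3.20.

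The size of the mcl1a difference was set beside that of other well-covered genes. Among the 3995 tested genes with a mean of at least 20 CPM over the 8 libraries, 30 (0.751%) had a lower log2 fold change than mcl1a in ins+ against sst1.1+, and 304 (7.61%) had a lower one than mcl1b. In sst1.1+ins+ against sst1.1+, 236 of them (5.91%) were lower than mcl1a. In sst1.1+ins+ against ins+, 19 were higher than mcl1a. Over all 16418 tested genes, which include many with few counts, the shares were larger: 10.2% lay below mcl1a and 23.0% below mcl1b in ins+ against sst1.1+, and 19.1% below mcl1a in sst1.1+ins+ against sst1.1+. The places of mcl1a restate the difference for which it was picked.

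The place of sst1.1+ins+ between the single-positive groups was read on the CPM scale, with the sst1.1+ mean as 0 and the ins+ mean as 1. It was 0.40 for mcl1a, 0.39 for mcl1b, 0.38 for bcl2l1 and 0.35 for baxb, so these 4 sat slightly nearer to sst1.1+. On the log2 scale the places were 0.20 for mcl1a, 0.32 for mcl1b, 0.31 for bcl2l1 and 0.18 for baxb, nearer still to sst1.1+ and less alike. The CPM-scale value for bbc3 was 0.78 and that for baxa 1.74, outside the span. The ends of their scales differ by less than the SD of the ins+ libraries, 5.74 CPM for bbc3 and 5.64 CPM for baxa. On the CPM scale sst1.1 stood at 0.42, EGFP at 0.56 and ins at 0.49. The 351 genes called lower in ins+ than in sst1.1+ by at least 2-fold had a median of 0.49, with quartiles of 0.33 and 0.60, so the 4 values fall inside that range. On the log2 scale that median was 0.27, with quartiles of 0.17 and 0.41, which again take in all 4. The hormones lay further apart on that scale, with sst1.1 at 0.25 and ins at 0.87. All of these places use the same 8 libraries.

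The balance between the MCL1 copies set ins+ apart from both other groups, which overlapped. The count ratio of mcl1a to mcl1b, in which a fixed difference in gene length cancels between groups, was 14.2, 12.6 and 20.7 in sst1.1+ins+, 4.75 and 3.97 in ins+ libraries, and 20.1, 20.1 and 16.4 in sst1.1+. Both ins+ libraries lay below the others, and the sst1.1+ins+ range took in all 3 sst1.1+ values. The ratio of mcl1a to baxa was 126 ± 17.1 in sst1.1+ins+, 17.9 ± 7.87 in ins+ and 144 ± 84.6 in sst1.1+. That of bcl2l1 to baxa was 2.60 ± 0.649, 1.47 ± 0.622 and 2.15 ± 0.929 in the same groups, and the sst1.1+ values overlapped those of both others. Since mcl1a was chosen on its level, its ratios carry no test.

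**Figure D3:**
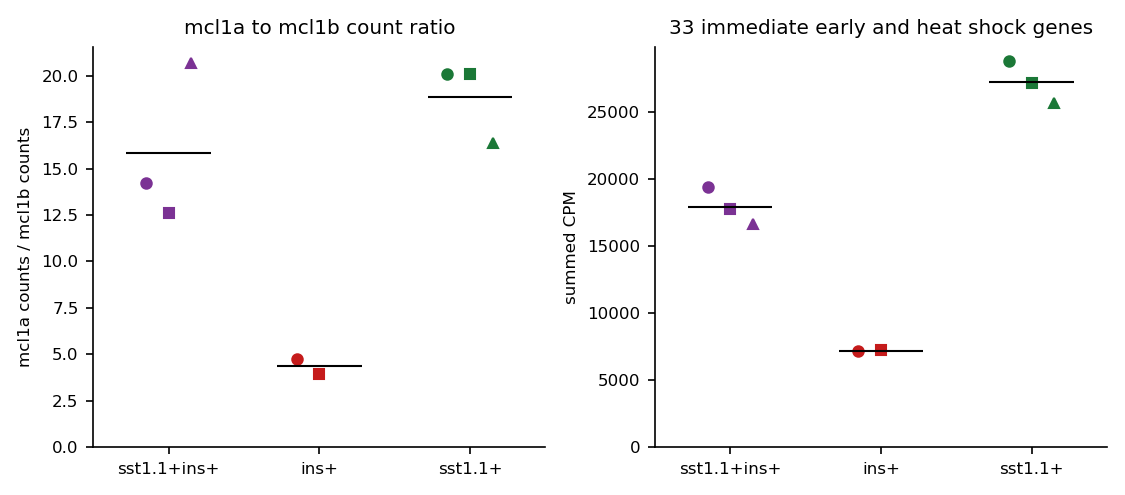
Left, the count ratio of mcl1a to mcl1b in each library; right, the summed CPM of the 33 listed immediate early and heat shock genes in the table; both axes start at 0, symbols are replicates 1, 2 and 3 and lines are means. In both panels the ins+ points are lowest, and in the right panel sst1.1+ins+ lies between ins+ and sst1.1+.

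Immediate early and heat shock genes are known to respond quickly to heat and to handling of cells. Their summed level had the same order of groups as mcl1a. Of 30 tested immediate early and heat shock genes, 20 fell and 0 rose in ins+ against sst1.1+, where 2.42% of all tested genes fell (median log2 fold change -1.94, against -0.07 over all tested genes). The list was chosen with earlier results of these data known, so its shares of calls, here and below, are a description and not independent of that choice. Of the 20 calls, 11 held in all 18 alternatives. The losses were most frequent for ier5l (10 of 18, the replicate block among them) and fosab (7 of 18), and 15 to 20 of the 30 were called with a library left out. Their summed level was 19437, 17778 and 16649 CPM in sst1.1+ins+, 7149 and 7244 CPM in ins+, and 28762, 27159 and 25675 in sst1.1+, so the 3 groups did not overlap. In sst1.1+ the sum was led by hsp90aa1.2 (mean 6452 CPM), hspa8 (3610.4), hsp70.3 (2838) and hsp70.2 (2757). In sst1.1+ins+ against sst1.1+, 28 of 30 log2 fold changes were negative and 2 positive, and the libraries of fosab and egr1 overlapped. Examples in ins+ and sst1.1+ were the co-chaperone gene bag3, at 38.4 ± 13.7 and 1172 ± 165 CPM, and the stress transcription factor gene atf3, at 50.4 ± 14.2 and 967 ± 97.2 CPM. Between sst1.1+ins+ and sst1.1+, atf3 and the chaperone gene hsp90aa1.2 fell (2 of 30, where 0.0305% of all tested genes fell) and 0 rose. The atf3 call did not hold in 7 of 18 alternatives (highest adjusted p = 0.191), namely with plain library totals and without any 1 of the 6 libraries compared, while that of hsp90aa1.2 held in all 18. Between sst1.1+ins+ and ins+, 13 of 30 rose, where 0.755% of all tested genes did, and 0 fell. Of these 13 calls 9 held in all 18 alternatives, while those of fosl1a and hspa8 were each lost in 8 and that of egr1 in 4, and 10 to 13 were called with a library left out. Whether a response to heat or handling had a part in these levels, or in those of mcl1a and mcl1b, was not tested. The hsp70 copies in this list are near-identical, so their separate counts are uncertain.

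The genes whose profile over the 8 libraries came nearest to that of mcl1a were ranked by the root mean square difference of log2 CPM, each gene centred on its own mean, among 3697 named genes. The nearest was the co-chaperone gene DNAJA4 at 0.187, where the median gene stood at 1.34. Next were the chaperone genes hspa4a at 0.222 and hspa5 at 0.234, the copine gene cpne4a at 0.261, the neurotrophin gene bdnf at 0.273, the AP-1 gene junbb and the chaperone gene hsp90aa1.1 at 0.275 each, and the integrin gene itga6b at 0.282. The hspa5 means, for instance, were 1693 CPM in sst1.1+ins+, 391 in ins+ and 2758 in sst1.1+, beside 1801, 303 and 2794 for mcl1a. Since the groups differ widely, any gene with the same 3 group means comes out near.

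**Figure D4:**
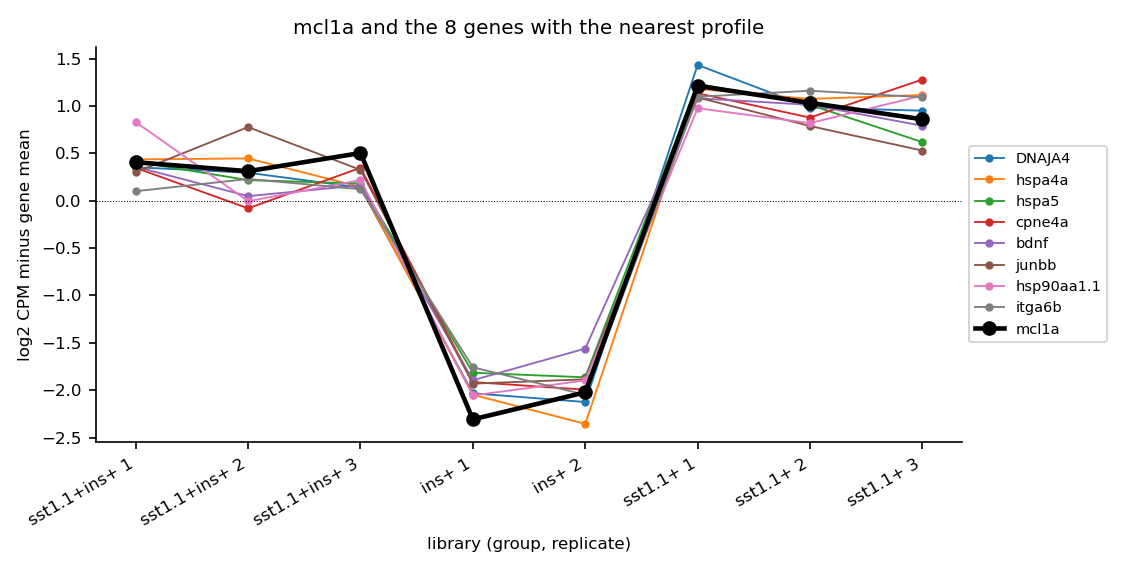
Log2 CPM minus the gene's own mean over 8 libraries (vertical axis) for mcl1a (thick black line) and its 8 nearest genes, by library; lines only join the points of a gene. All 9 profiles are lowest in the ins+ libraries and highest in sst1.1+ apart from single sst1.1+ins+ points of junbb and hsp90aa1.1.

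For mcl1b the nearest genes were the myelin proteolipid gene plp1b (0.131), the splicing kinase gene clk4a (0.139) and the heme synthesis gene alas1 (0.141), where the median was 0.583. For bcl2l1 they were dpp7 (0.108), alas1 and emc10 (0.113 each), and for bbc3 they included PTP4A3 (0.106) and kif3a (0.144). For baxa they were kif13ba (0.181), mpped2a (0.201) and ctsla (0.227). For baxb they were the receptor signalling inhibitor gene spry4 (0.357), the AP-1 gene junba (0.365) and the chaperone gene hsp90b1 (0.383), where the median was 1.15.

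The rest of the death machinery was read from 8 lists that hold the other BCL2 genes, the partners of BAX, caspases, inhibitors of apoptosis, enzymes that turn over MCL1 and death receptors. By edgeR, 0 of their 64 tested genes passed in each of the 3 comparisons, where 4.03%, 0.207% and 0.920% of all tested genes did. An unadjusted p under 0.05 was seen for 10 of 64 in ins+ against sst1.1+ (15.6%, against 17.6% of all tested genes), for 2 in sst1.1+ins+ against sst1.1+ (3.12%, against 7.90%) and for 9 in sst1.1+ins+ against ins+ (14.1%, against 12.1%). DESeq2 called 5, 0 and 3 of the 64 in these comparisons, or 7.81%, 0 and 4.69%, where it called 10.2%, 1.64% and 4.71% of all tested genes. For limma-voom the counts were 1, 0 and 0, where it called 3.75%, 0.603% and 1.08% of all tested genes. Under other settings edgeR too called a few in ins+ against sst1.1+. With no filter on low counts these were bnip3lb and cycsb (3.12% of the 64, against 5.62% of all tested genes). With the replicate block it called cycsb (1.56% against 3.95%). It called casp6 without sst1.1+ replicate 2 (1.56% against 2.56%), and cycsb and dffa without sst1.1+ replicate 3 (3.12% against 4.61%). Fits that leave 1 ins+ library are not counted here. The median log2 fold changes of the 64 were -0.19, -0.06 and 0.00. By list, the medians in ins+ against sst1.1+ ran from -0.60 for 5 inhibitor of apoptosis genes to 0.42 for 7 enzymes that turn over MCL1, and that of the 17 caspase and apoptosome genes was -0.40.

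Among the other pro-survival genes, bcl2a held 20.9, 6.29 and 17.7 CPM in sst1.1+ins+, 6.43 and 23.5 CPM in ins+, and 14.4, 12.9 and 31.6 in sst1.1+. All 3 groups overlapped, and within ins+ the libraries differed more than the group means did. The relative bcl2l10 averaged 10.5 ± 0.572 CPM in sst1.1+ins+, 12.7 ± 2.81 in ins+ and 13.6 ± 0.554 in sst1.1+, with a log2 fold change of -0.10 in ins+ against sst1.1+ (interval -0.97 to 0.77, adjusted p = 0.942). No counts were seen for bcl2b in any library.

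Of the BAX-like genes, boka, which encodes the pore former BOK, had 23, 148 and 2 counts in sst1.1+ins+, 0 in both ins+ libraries, and 34, 96 and 27 in sst1.1+. The sst1.1+ins+ libraries spread from under the floor of 3 counts to more than any other library. It did not pass in ins+ against sst1.1+ (adjusted p = 0.129), though DESeq2 called it. A count of 0 allows up to 0.150 and 0.176 CPM in the ins+ libraries. The genes BCL2L12, bcl2l13 and BCL2L14, the other tested ones of this list, stayed at mean levels between 1.53 and 6.60 CPM with overlapping groups in each comparison. The genes bokb and bcl2l16 of this list were not tested, with at most 52 and 4 counts in a library.

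Of 8 tested BH3-only genes, 4 had a positive and 4 a negative log2 fold change in ins+ against sst1.1+, and 0 passed. The one with the most counts, bnip3lb, a counterpart of the mitophagy receptor gene BNIP3L, held 331, 267 and 327 CPM in sst1.1+ins+, 415 and 450.4 CPM in ins+, and 211, 297 and 306 in sst1.1+. Both ins+ libraries were above the rest, while the other groups overlapped. It was 1.59-fold higher in ins+ than in sst1.1+ (interval 0.27 to 1.07 in log2, adjusted p = 0.0694 by edgeR), and DESeq2 and limma-voom called it. The gene bada, a counterpart of BAD, averaged 27.0 ± 6.04 CPM in sst1.1+ins+, 48.7 ± 14.7 in ins+ and 35.5 ± 4.93 in sst1.1+, without a call (adjusted p = 0.448 in ins+ against sst1.1+). The NOXA gene pmaip1 ranged from 1.68 to 23.5 CPM within sst1.1+ alone, which covers every value of the other groups apart from 1 of 1.63 and 1 of 1.29 CPM. The remaining tested ones, badb, bik, bmf2, bnip3 and bnip3la, had mean levels of 14.6 CPM or less and did not pass. The BH3-only genes bcl2l11 and bida were not tested, with at most 10 and 14 counts in a library.

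The genes that DESeq2 called in ins+ against sst1.1+ are named here because of that call, after their values were seen. Beside bnip3lb and boka they were the cytochrome c gene cycsb, at 131 ± 6.17 CPM in ins+ and 207 ± 29.2 in sst1.1+, the mitochondrial endonuclease gene endog, at 0.446 ± 0.216 and 3.52 ± 1.24 CPM, and the death receptor gene fas, at 0.274 ± 0.388 and 4.55 ± 0.409 CPM. Their edgeR adjusted p were 0.0815, 0.191 and 0.133. The ins+ means of endog and fas lie near the floor of 3 counts, which is 0.150 and 0.176 CPM in the ins+ libraries. The SD of fas in ins+ exceeds its mean. In sst1.1+ins+ against ins+ DESeq2 called boka, endog and fas, all higher in sst1.1+ins+.

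**Figure D5:**
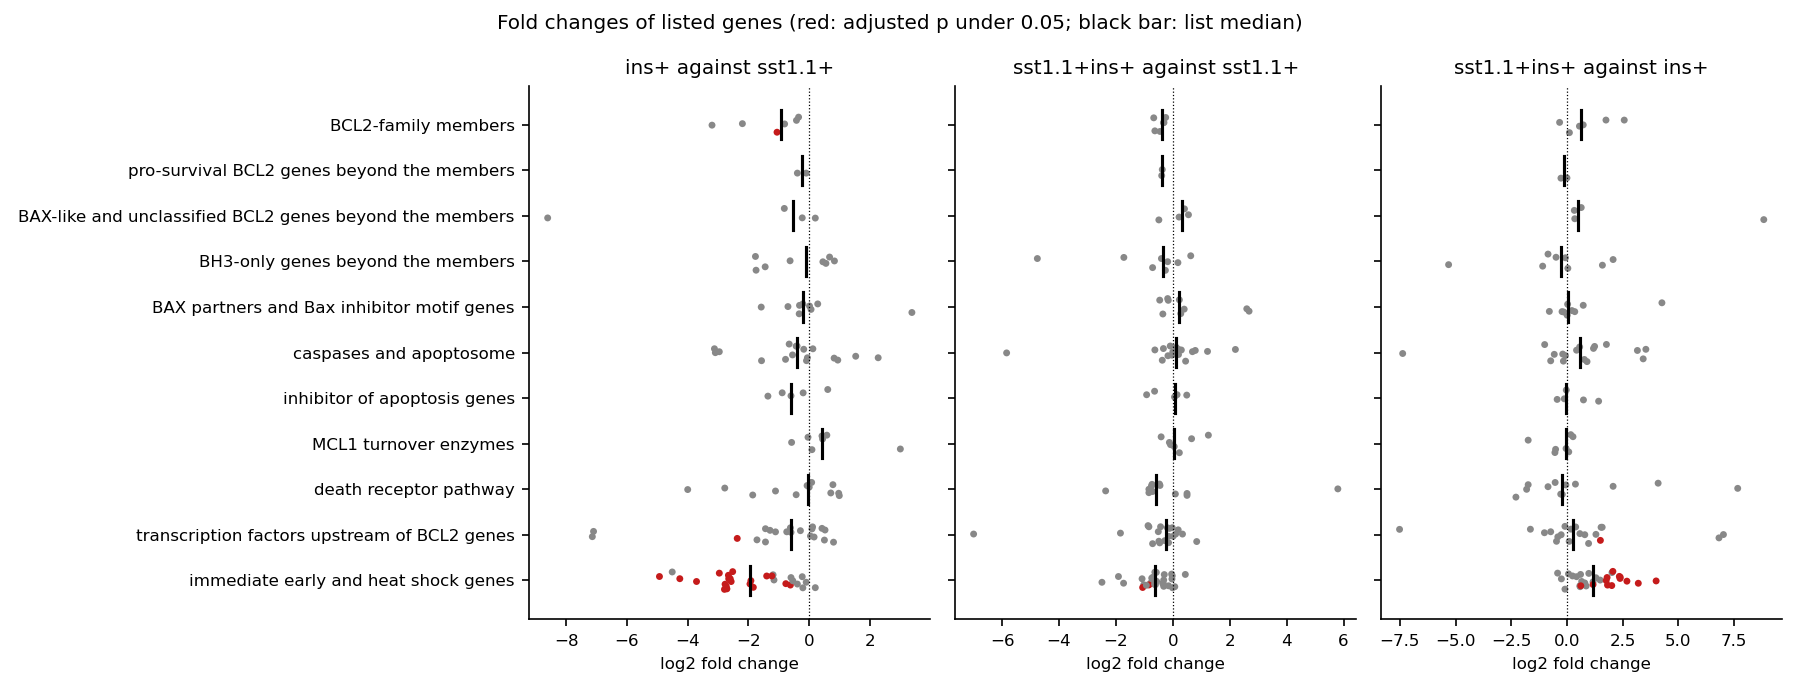
Log2 fold changes of the tested genes of each list (points), with the list median as a black bar, in 1 panel per comparison; red marks an adjusted p under 0.05. Points beyond 5 are genes with few or 0 counts in a group, whose fitted size is no measure, and mcl1a is drawn in grey. The red points belong to mcl1b, ddit3 and the immediate early and heat shock genes.

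Of 20 tested transcription factors known to act on BCL2 genes, ddit3 alone passed, 1 of 20 in ins+ against sst1.1+ and in sst1.1+ins+ against ins+, where 4.03% and 0.920% of all tested genes did. It encodes CHOP, a factor of the endoplasmic reticulum stress response that in mammals raises BH3-only genes. Its level was 93.0, 112 and 59.0 CPM in sst1.1+ins+, 24.1 and 38.1 CPM in ins+, and 176, 155 and 152 CPM in sst1.1+. The 3 groups did not overlap and kept the order of mcl1a. It fell 5.18-fold in ins+ against sst1.1+ (log2 fold change -2.37 ± 0.30 SE, adjusted p = 0.000954) and rose 2.83-fold in sst1.1+ins+ against ins+ (adjusted p = 0.0353). The second call was lost in 8 of 18 alternatives, among them without either ins+ library, with adjusted p up to 0.148.

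Markers of other cells were set beside the BCL2 genes. Of 11 listed ductal genes 10 were in the table, and their sums were 528 to 704 CPM in sst1.1+ins+, 265 to 371 in ins+ and 637 to 894 in sst1.1+, mostly from clu, krt8, anxa4 and epcam, with cftr at 0 in ins+ and in sst1.1+. The 11 immune genes summed to 60.26 to 127, 78.69 to 101 and 201 to 316 CPM, nearly all from cd74a and cd74b. The leukocyte genes mpeg1.1 and lyz were at 0 in every sst1.1+ins+ and ins+ library, lcp1 was at 0 throughout, and ptprc did not exceed 0.974 CPM. Sums of 15 acinar genes were 33.57 to 92.78, 20.1 to 72.64 and 33.98 to 145 CPM, and those of 4 alpha-cell genes, led by gcga, were 24466 to 34107, 11362 to 18668 and 33702 to 65999.8 CPM. Sums of the 9 mesenchymal genes were 1.51 to 18.7, 2.942 to 9.22 and 2.251 to 96.93 CPM, and those of endothelial and erythrocyte genes stayed under 1 CPM. The ductal and alpha-cell sums were lowest in ins+, as mcl1a was. Their sst1.1+ins+ and sst1.1+ ranges overlapped, for the alpha-cell sums only between 33702 and 34107 CPM. The group means of clu, krt8, anxa4, epcam, gcga, gcgb and arxa kept the order of mcl1a. Those of the alpha-cell gene ttr, at low levels, ran the other way. The part of such cells or of their free RNA in the BCL2 levels was not tested.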

How the data were processed

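The deposited values are the authors' raw counts per gene in 8 libraries, not normalized. The submitters' processing notes name Trim Galore for trimming, HISAT2 for alignment to GRCz11 and featureCounts for counting over exons. Versions, annotation, strand setting and the handling of multiply aligned reads were not given in the sources used, so reads shared between paralogues or overlapping genes cannot be apportioned. Of 32046 rows, 92 ERCC rows and 1 EGFP row stayed out of totals and tests.

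Tests were run with edgeR 4.0.16 in R 4.3.3: default filter by group, TMM, 1 mean per group over all 8 libraries, quasi-likelihood F-test, Benjamini-Hochberg adjustment over all 16418 tested genes at 0.05. SE is the absolute log2 fold change over the root of F, and intervals are 95%. CPM are on TMM-scaled totals, and log2 CPM use a prior count of 2. Symbols were matched without regard to case, taking the row with most counts; 133 of 155 list symbols were in the table and 114 were tested. Alternatives were RLE scaling, library totals, totals without hormone and mitochondrial genes, DESeq2 1.42.0, limma-voom (limma 3.58.1) with quality weights, no filter or a stricter one, a replicate block, fits of 2 groups only, libraries thinned to the smallest total and each library left out. The sum of both baxa rows was added after seeing the data. The fitting was tested on simulated data.

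The members and lists were chosen with earlier results of these data known. The rule for naming genes took the 6 members and all BCL2 genes of the first 3 lists. It added up to 4 genes per list with the smallest p among those past 0.05. It also took the 8 (mcl1a) or 3 (other members) nearest profiles among named genes with a mean of at least 20 CPM. Other list genes were named outside the rule, after their values were seen, because a call was made or lost under another setting. One of the nearest profiles of bbc3 is not reported here.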

Additional observations from a re-analysis of the deposited data

How the results depend on the processing

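Over the 16 tested fold changes of the 6 genes and 19 alternatives, 292 of 304 values kept their direction and their side of the threshold. The 38 untested values of mcl1a kept their sign (-3.35 to -3.06 in ins+ against sst1.1+, 2.43 to 2.72 in sst1.1+ins+ against ins+). Its tested ones did so too (-0.72 to -0.54 in sst1.1+ins+ against sst1.1+). Signs turned only for baxa and bbc3: without ins+ replicate 1, bbc3 stood at 0.01 in ins+ against sst1.1+ and at -0.32 in sst1.1+ins+ against ins+, and baxa at 0.03 in the second of these; without sst1.1+ replicate 3, baxa stood at 0.00 in ins+ against sst1.1+. The cause was not tested. With a library left out, baxa ran from -0.70 to 0.00 and bbc3 from -1.01 to 0.01 in ins+ against sst1.1+, and baxa from -0.61 to 0.03 and bbc3 from -0.32 to 0.70 in sst1.1+ins+ against ins+. Genes called in ins+ against sst1.1+ numbered 662, but 1276 with no filter, 412 with only the libraries of both groups, 1677 by DESeq2 and 330 to 757 with a library left out; members called (1) numbered 3 by DESeq2 and 0 to 1 with a library left out. In sst1.1+ins+ against sst1.1+ the 34 calls became 229, 270 and 99 with no filter, DESeq2 and limma-voom, and 19 to 29 with a library left out, and the members called (0) became 1 under each of those 3 settings. That member was mcl1a, which the sst1.1+ libraries helped to choose. In sst1.1+ins+ against ins+ the 151 calls became 560 with no filter, 774 by DESeq2 and 61 to 194 with a library left out, and the members called (0) became 1 by DESeq2. Calls higher and lower, 265 and 397 in ins+ against sst1.1+, were 353 and 262 by limma-voom, and the balance turned the other way in the other comparisons, where 29 and 5 became 40 and 59 in sst1.1+ins+ against sst1.1+, and 124 and 27 became 69 and 108 in sst1.1+ins+ against ins+. No pairing by replicate number was seen: deviations of same-numbered libraries from their group means correlated at -0.0291 to 0.0125. That does not show that same-numbered libraries had separate origins. With the replicate block, 648, 44 and 181 genes were called, and 1, 0 and 0 members. Of the 6 genes, baxb rests on the fewest counts in ins+, 18 and 59. With libraries thinned to the smallest total its log2 fold change in ins+ against sst1.1+ was -2.14, beside -2.20 in the main fit. With 2 ins+ libraries, leaving 1 out assumes that the other varies like the other groups.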
